A study of Mus musculus with 10 samples.

Results

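Bach2 knockout mice of a conditional line held 2 populations labelled as alveolar macrophages, told apart by the submitters by their surface markers. The comparison described here sets the population with aberrant markers against that with normal markers. It uses 4 of the 10 samples of the study, namely 2 labelled abnormal and 2 labelled normal, chosen by their titles and not by any measured value. All 26173 genes of the deposited table were read and 10231 of them were high enough to be compared. The question it answers is how far the aberrant population differs from its normal-marker neighbours when genotype, strain, age and labelled sex are the same.

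Alveolar macrophages live in the airspaces of the lung, where they take up and break down surfactant lipid and inhaled material. They depend on the growth factor GM-CSF and on the transcription factor PPAR-gamma, and in mice they are recognised by high CD11c and Siglec-F. Dendritic cells that mature in the lung switch on the chemokine receptor Ccr7 and move to the draining lymph node, where they present antigen to T cells. Bach2 is a transcriptional repressor best known for keeping lymphocytes from premature effector differentiation.

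All mice were C57BL/6, labelled female and 16 weeks old. The conditional knockout carried floxed Bach2 and CD4cre, a Cre driver active in T cells, so its macrophages need not have lost Bach2 themselves. The other groups were the CD4cre control of the same floxed line (conditional control), wild type mice and mice with a germline knockout of Bach2. Each had 2 samples, and they are used here only to place the 2 populations. The labels give neither the surface markers used, nor the number of mice, nor whether mice were pooled, and genes of the proteins used to separate the populations had to differ between them.

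Values are FPKM, fragment counts relative to transcript length and to the size of the library, summed over the transcripts of each gene. Depth, read from the steps of the lowest values, was about 7.58 to 9.64 M fragments per sample. The 2 samples of each group differed by hardly more than 2 draws from 1 library would. Their log2 values correlated at 0.996 to 0.999 across genes. Among genes whose larger value in the pair was 1 to 3 FPKM, 0.0956 to 0.755% had no fragments assigned in 1 run. Any trace value counted as present. They were therefore treated as 2 runs of 1 library, so that each group counts as 1 sample and no p-value can be given. Bach2 was at 0.0761 and 0.0382 FPKM in the normal-marker runs and at 0.0146 and 0.0260 FPKM in the aberrant-marker runs, with means of 0.0186 FPKM in the conditional control and 0.0292 FPKM in the germline knockout. All of these are levels of about 1 read, so the target gene checks no label. Xist was at 6.77 and 6.88 FPKM in the normal-marker runs and at 10.0 and 8.17 FPKM in the aberrant-marker runs, and it was under 0.01 FPKM in the libraries of wild type and germline knockout mice despite their female label.

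A gene was called higher or lower when log2(FPKM + 1) differed by at least 2 (4-fold) in the mean and in every pairing of the runs and its higher mean was 20 FPKM or more. By this rule 456 genes were higher (4.46% of those compared) and 369 lower (3.61%) in the aberrant-marker library. For scale, the 2 control libraries, neither of which lacks Bach2, differed by the rule in 239 of 9674 genes (2.47%, with 1.10% higher and 1.37% lower in the wild type), against 8.06% here. Genes at 20 FPKM or more in the aberrant-marker library included 136 of 3728 (3.65%) that were under 0.1 FPKM in both normal-marker runs, while 47 of 3586 (1.31%) were so in the opposite direction. Between the control libraries these shares were 0.381% and 0.646%. Differences on the log2(FPKM + 1) scale understate the change of low genes. Where a library was at or near 0, many genes are given as levels only, and any difference given there depends on the added 1 FPKM.

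**Figure D1:**
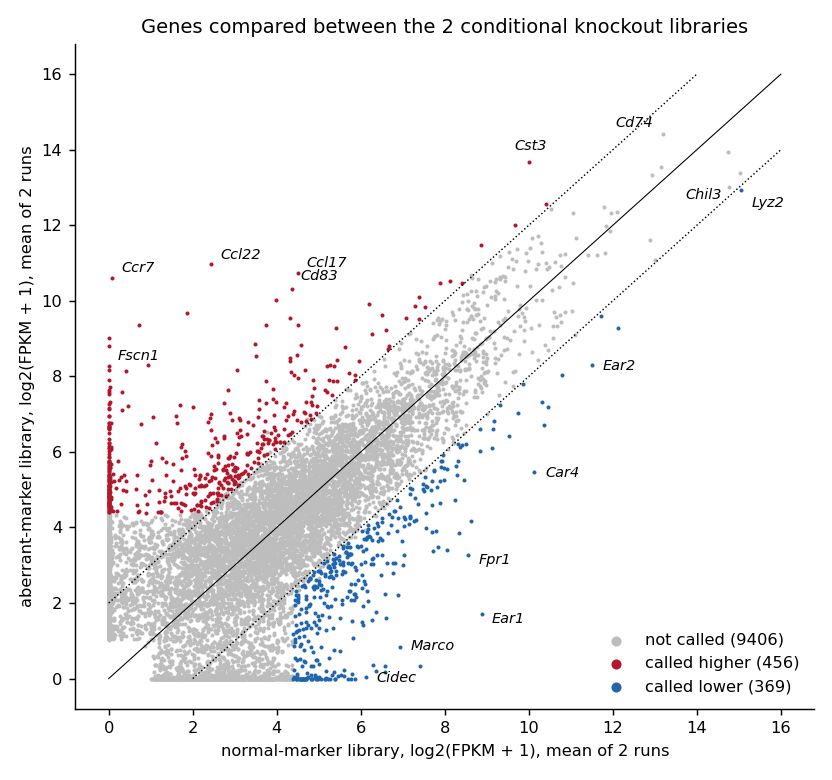
Mean log2(FPKM + 1) of the 2 runs of the normal-marker library (x axis) and the aberrant-marker library (y axis) for the 10231 genes compared, with 456 called higher in red, 369 called lower in blue and the 4-fold limits dotted. Ccr7, Ccl22 and Fscn1 lie along the left edge with high values in the aberrant-marker library, and Ear1, Marco and Cidec lie along the lower edge.

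Among the lists examined, the largest share of calls fell in the programme by which dendritic cells mature and leave for the lymph node. Of 46 genes of this list in the table, 37 were higher and 0 lower (80.4% against 4.46% of all genes compared). The aberrant-marker library held the highest level of the 5 libraries for 43 of the 46, against 31.1% of all genes compared. The list counts members of both presentation and migration, and 45 of its genes reached 1 FPKM in the aberrant-marker library against 25 in the normal-marker library. Among the 25 present in both, the median log2 difference was 3.67, against 0.07 for all 7457 genes present in both.

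Ccr7, the receptor that guides maturing cells to the lymph node, was at 0 and 0.128 FPKM in the normal-marker runs and at 1542 and 1585 FPKM in the aberrant-marker runs. The means of both control libraries were under 0.1 FPKM, and the germline knockout lay between at 71.6 FPKM. Fscn1, the actin-bundling protein fascin of dendritic cell processes, was at 0 in both normal-marker runs and at 309 and 310 FPKM in the aberrant-marker runs. It was listed at 0 in both control libraries too. Cacnb3, a calcium channel subunit, reached 448 and 439 FPKM from levels under 0.01 FPKM. Cd83, a surface marker of mature dendritic cells, went from 20.3 and 18.7 FPKM to 1278 and 1274 FPKM (log2 difference 5.96). Cst3, a protease inhibitor abundant in dendritic cells, went from 1020 and 1027 FPKM to 13045 and 12956 FPKM (3.67). Rgs1, a regulator of G protein signalling, stood at 14.2 and 15.6 FPKM against 1040 and 1028 FPKM (6.03). All 6 of these genes were called, and the rule of the call already requires that the runs of the 2 libraries do not overlap. Tmem176b, a membrane protein abundant in dendritic cells, was at 177 and 190 FPKM, and Il4i1, a secreted amino acid oxidase, at 124 and 123 FPKM, both from below 0.01 FPKM.

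The programme did not extend to all list members. Cd274, the checkpoint ligand PD-L1, was at 52.2 and 52.8 FPKM in the normal-marker runs and at 202 and 196 FPKM in the aberrant-marker runs, a difference of 1.90 that stayed under the threshold. Birc3, an inhibitor of apoptosis, had a mean difference of 2.01 but not in every pairing of runs. Anxa3 (147 to 149 FPKM and 130 to 132 FPKM) and the receptor chain Il15ra (13.1 and 13.5 FPKM against 8.21 and 9.52 FPKM) were the members with lower values in the aberrant-marker library, and neither was called.

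NF-kappaB, the transcription factor family that drives much of dendritic cell maturation, was itself among the genes that differed. Of 30 genes of NF-kappaB signalling and survival 13 were higher (43.3%, against 4.46% of all genes compared) and 0 lower. In 25 of the 30 the level was highest in the aberrant-marker library, which held for 31.1% of all genes compared. Relb, a subunit of the non-canonical pathway, went from 6.93 and 7.70 FPKM to 285 and 291 FPKM (5.12), and its partner Nfkb2 from 28.2 and 29.0 FPKM to 206 and 209 FPKM (2.81). Rel, the c-Rel subunit, was at 0.0411 and 0 FPKM against 33.2 and 33.1 FPKM. Rela, the subunit present in most cells, differed less, at 40.9 and 43.1 FPKM against 110 and 112 FPKM (1.38, not called). Map3k14, the kinase NIK of the non-canonical pathway, was higher by 3.79, and the adaptor Traf1 reached 215 and 207 FPKM from 0.0496 and 0 FPKM. The inhibitor Nfkbia, itself induced by the pathway, went from 89.7 and 89.3 FPKM to 794 and 778 FPKM (3.12). Subunits, an activating kinase, an adaptor and an inhibitor were thus all called in the same direction, while the kinase subunits Ikbkb (0.41) and Ikbkg (-0.46) were not called.

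Since members of these lists were higher together, the promoters of the genes compared were searched for the kappaB consensus, the decamer bound by NF-kappaB, on both strands of the 250 bases before the transcription start (RefSeq, GRCm38.p6). A promoter was found for 8238 of the 10231 genes, and 10.4% of these held a match in at least 1 window. The share was 14.9% among genes called higher (54 of 363) and 7.41% among genes called lower (22 of 297), and it was 24.2% in the maturation list (8 of 33) and 36.0% in the NF-kappaB list (9 of 25). The AP-1 motif TGANTCA was at 5.37% of all genes, 7.99% of those higher (29 of 363) and 7.41% of those lower (22 of 297), and at 15.2% of the maturation list (5 of 33) and 24.0% of the NF-kappaB list (6 of 25). In the list of alveolar macrophage identity both motifs were at 12.9% (4 of 31). Both motifs thus had larger shares in the 3 lists than over all genes, and no test of these shares was run. A match describes letters in a window and shows no binding. Shown here are 4 promoters of called genes from the maturation list with kappaB matches in capitals, followed by 2 of called lipid and scavenger genes of alveolar macrophages with TGANTCA in capitals. Where matches overlap, the capitals join them. For genes with several windows only the window with the most matches is shown. Nfkb2 had 3 windows, and Tnfrsf9 and Cidec had 2 each.
Rel, chr11:23770970-23771219, minus strand: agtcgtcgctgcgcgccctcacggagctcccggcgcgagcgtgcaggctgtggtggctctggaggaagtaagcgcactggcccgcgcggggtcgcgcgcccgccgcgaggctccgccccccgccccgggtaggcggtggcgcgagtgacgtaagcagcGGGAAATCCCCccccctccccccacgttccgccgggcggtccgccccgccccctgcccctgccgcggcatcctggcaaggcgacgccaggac
Nfkb2, chr19:46304487-46304736, plus strand: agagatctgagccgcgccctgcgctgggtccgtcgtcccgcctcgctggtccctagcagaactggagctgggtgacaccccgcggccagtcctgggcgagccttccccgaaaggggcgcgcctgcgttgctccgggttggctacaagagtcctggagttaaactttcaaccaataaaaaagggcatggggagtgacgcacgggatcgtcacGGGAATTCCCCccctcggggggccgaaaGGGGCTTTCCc
Tnfrsf9, chr4:150927749-150927998, plus strand: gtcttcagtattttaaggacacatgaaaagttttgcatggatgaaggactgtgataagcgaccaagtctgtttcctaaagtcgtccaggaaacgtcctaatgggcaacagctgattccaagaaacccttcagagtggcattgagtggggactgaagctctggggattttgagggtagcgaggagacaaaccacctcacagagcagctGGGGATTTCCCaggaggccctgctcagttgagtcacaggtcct
Pdcd1lg2, chr19:29410669-29410918, plus strand: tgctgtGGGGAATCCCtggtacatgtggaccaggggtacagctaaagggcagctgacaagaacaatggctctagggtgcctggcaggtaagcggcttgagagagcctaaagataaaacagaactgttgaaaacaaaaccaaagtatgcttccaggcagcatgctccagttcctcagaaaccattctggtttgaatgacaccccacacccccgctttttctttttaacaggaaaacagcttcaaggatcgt
Cidec, chr6:113434765-113435014, minus strand: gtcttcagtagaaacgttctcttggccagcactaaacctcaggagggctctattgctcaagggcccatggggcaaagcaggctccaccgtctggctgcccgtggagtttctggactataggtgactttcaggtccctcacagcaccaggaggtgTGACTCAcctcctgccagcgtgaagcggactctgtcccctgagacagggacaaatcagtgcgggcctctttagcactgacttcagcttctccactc
Olr1, chr6:129507166-129507415, minus strand: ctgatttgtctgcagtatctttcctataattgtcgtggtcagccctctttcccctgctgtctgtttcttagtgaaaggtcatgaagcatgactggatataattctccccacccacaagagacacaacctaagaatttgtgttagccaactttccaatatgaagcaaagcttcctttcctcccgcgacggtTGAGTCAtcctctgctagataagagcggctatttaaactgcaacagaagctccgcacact

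In Rel the window held 2 overlapping matches beginning 92 bases before the start. In Nfkb2 the window shown held 3, from 39 to 11 bases before the start. Tnfrsf9, the costimulatory receptor 4-1BB, had 2 overlapping matches 43 bases before the start and was at 98.5 and 99.4 FPKM in the aberrant-marker runs against levels under 0.01 FPKM. In Pdcd1lg2, the checkpoint ligand PD-L2, the match began 244 bases before the start, and the gene went from 1.23 and 0.902 FPKM to 124 and 119 FPKM (5.89). Cidec, a lipid droplet protein, had its AP-1 motif 96 bases before the start, and the scavenger receptor Olr1 had its own 60 bases before. Both of these genes were called lower, as given below with their families.

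Of 29 chemokine genes 9 were higher (31.0%, against 4.46% of all genes compared), 0 lower and 20 not called. Ccl22, a ligand of Ccr4 on T cells that dendritic cells produce, went from 4.02 and 4.86 FPKM to 1993 and 2010 FPKM (8.52), and Ccl17, which binds the same receptor, from 21.0 and 22.0 FPKM to 1745 and 1689 FPKM (6.25). Ccl5 was at 533 and 499 FPKM in the aberrant-marker runs and under 0.01 FPKM in the normal-marker runs. These 3 ligands, which attract T cells, were high in the aberrant-marker population and low or listed near 0 in the other. Ligands of monocytes also differed: Ccl2 was at 4.32 and 5.57 FPKM against 78.7 and 72.3 FPKM (3.69), and Ccl7 at 71.0 and 68.7 FPKM from at most 0.0184 FPKM. Both were higher still in the germline knockout, at 243 and 136 FPKM. Ccl6, abundant in alveolar macrophages, had lower values in the aberrant-marker library (7615 and 7570 FPKM against 3117 and 3097 FPKM, -1.29) and was not called.

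Among 31 chemoattractant receptors 6 were higher (19.4%) and 4 lower (12.9%), against 4.46% and 3.61% of all genes compared. Besides Ccr7, the higher ones included Gpr183, the oxysterol receptor that positions cells in lymphoid tissue (62.9 and 65.4 FPKM from 0), Cxcr6 (21.3 and 23.2 FPKM from 0), Cxcr4 (log2 difference 4.01) and C3ar1 (2.79). The lower ones were receptors of bacterial peptides, complement and neutrophil chemokines. Fpr1, a formyl peptide receptor, was at 374 and 372 FPKM in the normal-marker runs and at 7.56 and 9.92 FPKM in the aberrant-marker runs (-5.26), and Fpr2 differed by -2.68. C5ar1, the receptor of C5a, went from 208 in both runs to 23.4 and 22.6 FPKM (-3.12). Cxcr1 was at 43.4 and 38.0 FPKM against 0. Ccr7 and Gpr183, which guide cells within lymphoid tissue, and these 4 receptors thus lay on opposite sides.

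The class II and costimulation list had 6 of 18 genes higher (33.3%, against 4.46% of all genes compared) and 0 lower. Of the 18, 17 were at 1 FPKM or more in the aberrant-marker library against 13 in the normal-marker library. H2-Aa, a class II alpha chain, went from 1356 and 1370 FPKM to 6021 and 5992 FPKM (2.14), and H2-Eb1 from 469 and 463 FPKM to 2801 and 2879 FPKM (2.60). H2-Ab1 (1.92) and the invariant chain Cd74 (1.23) were not called, although Cd74, at 21984 and 21881 FPKM against 9279 and 9393 FPKM, was the most abundant transcript of the aberrant-marker library. The costimulators Cd40 (0.288 and 0.221 FPKM against 138 and 134 FPKM), Cd80 (0.0655 and 0 FPKM against 20.4 and 21.3 FPKM) and Cd86 (8.04 and 9.78 FPKM against 111 and 110 FPKM) were all called. Peptide loading genes did not follow: H2-DMa (-0.69) and H2-DMb1 (-0.63) had lower values, while H2-DMb2 was higher by 4.49. Reads of H2-DMb1 and H2-DMb2, which are near-identical copies, may have been divided by the authors' estimate. Of 20 MHC class I genes 2 were higher (10%, against 4.46% of all genes compared), H2-Q7 and the proteasome activator Psme1.

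Genes of the conventional dendritic cell lineage were less uniform than the maturation genes. Of 25 measured, 7 were higher (28%, against 4.46% of all genes compared) and 0 lower, and the median over the 12 present in both libraries was 0.20. Flt3, the growth factor receptor of dendritic cell precursors, was at 37.2 and 37.5 FPKM and under 0.01 FPKM in the normal-marker runs. Zbtb46, a transcription factor restricted to this lineage among myeloid cells, went from 4.13 and 3.09 FPKM to 34.0 and 34.4 FPKM (2.93, not called on its highest transcript alone), and Irf4, the factor of the type 2 subset, from 9.23 and 8.84 FPKM to 60.9 and 61.3 FPKM (2.63). The lectins Mgl2 (295 and 275 FPKM), Cd209a (114 and 103 FPKM) and Clec10a (27.5 and 31.1 FPKM), of type 2 and monocyte-derived dendritic cells, were under 0.01 FPKM in the normal-marker runs. Type 1 subset genes differed from them: Xcr1 was listed at 0 in both aberrant-marker runs, Clec9a was at 0.650 and 0.590 FPKM, and the called set did not include Batf3 (1.67) or Irf8 (1.64). Sirpa, on macrophages and type 2 dendritic cells alike, had lower values (501 and 525 FPKM against 132 and 123 FPKM) and was not called.

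C1q genes, marks of interstitial and monocyte-derived macrophages, were among the higher ones of the monocyte-derived list, of which 5 of 30 genes were higher and 1 lower. These shares were 16.7% and 3.33%, against 4.46% and 3.61% of all genes compared. C1qa was at 193 FPKM in both aberrant-marker runs and under 0.01 FPKM in the normal-marker runs, C1qc at 286 and 281 FPKM against 0.256 and 0.396 FPKM, and C1qb at 373 and 377 FPKM against 19.5 and 23.1 FPKM (4.08). Itgam (CD11b) reached 26.9 and 25.5 FPKM from levels under 0.01 FPKM (not called on its highest transcript alone), and Timd4, a phosphatidylserine receptor, 21.8 and 22.4 FPKM. Other genes of recruited macrophages did not separate the populations. Trem2 was at 190 and 189 FPKM against 181 FPKM in both runs (-0.07) and Gpnmb at 315 and 314 FPKM against 289 and 285 FPKM (-0.13). Ly6c2 and Cx3cr1 were under 0.01 FPKM in all 4 runs.

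T cell transcripts were present in the aberrant-marker library. It held 22 of 30 genes of this list at 1 FPKM or above, against 2 in the normal-marker and conditional control libraries, 1 in the wild type and 2 in the germline knockout. The invariant T cell receptor chains Cd3e (17.5 and 17.9 FPKM), Cd3g (27.2 and 20.9 FPKM) and Cd3d (13.7 and 18.7 FPKM) were under 0.01 FPKM in both normal-marker runs. Lck, the kinase next to the receptor, was at 30.3 and 28.8 FPKM and was not called on its highest transcript alone. Genes of regulatory and helper T cells were lower but listed in both runs, among them Foxp3 (6.76 and 7.27 FPKM), Ctla4 (14.9 and 14.2 FPKM), Icos (13.4 and 13.1 FPKM) and Gata3 (8.77 and 10.4 FPKM). Cd4 was at 17.7 and 16.0 FPKM against 5.58 and 4.68 FPKM in the normal-marker library, and Cd8a was under 0.01 FPKM. By the call, 4 genes of the list were higher, namely Il7r, Lat, Lck and Cd3g, and 1 was lower, Cd2 (-2.50), which alveolar macrophages also express. These shares were 13.3% and 3.33%, against 4.46% and 3.61% of all genes compared.

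The summed level of 9 T cell markers was 160 and 154 FPKM in the aberrant-marker runs and 5.80 and 4.76 FPKM in the normal-marker runs. For 8 dendritic cell markers the sums were 2185 and 2220 FPKM against 56.1 and 45.8 FPKM, and for 8 monocyte-derived macrophage markers 912 and 908 FPKM against 39.2 and 45.4 FPKM. For 10 alveolar macrophage markers they were 8968 and 8841 FPKM against 33576 and 33266 FPKM. Most of this sum was Chil3, at 8344 and 8238 FPKM against 27882 and 27588 FPKM, which was not called. The germline knockout had the highest sum, at 47550 and 47775 FPKM, again mostly Chil3 (mean 46574 FPKM). In the aberrant-marker runs most of the dendritic cell sum was Ccr7, and most of the monocyte-derived sum was C1qa, C1qb and C1qc. Natural killer cell markers summed to 17.0 and 14.8 FPKM against 0 in both normal-marker runs, all of it Nkg7, with the other 3 of 4 under 0.01 FPKM. Neutrophil markers had lower sums in the aberrant-marker runs, at 9.43 and 18.7 FPKM against 34.8 and 37.0 FPKM, and Ly6g and S100a9 were under 0.01 FPKM in both libraries. Of the remaining types, all 4 B cell markers were at 0 in both libraries, eosinophil markers summed to at most 0.0352 FPKM, and 3 lung epithelium markers summed to 24.6 and 35.6 FPKM against 31.2 and 32.5 FPKM, all of it Scgb1a1 with Sftpc and Sftpa1 at 0. In libraries made from many cells, fewer cells of a type and less RNA per cell cannot be told apart. How far other cells in the sorted population take part in any difference given here was not tested.

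**Figure D2:**
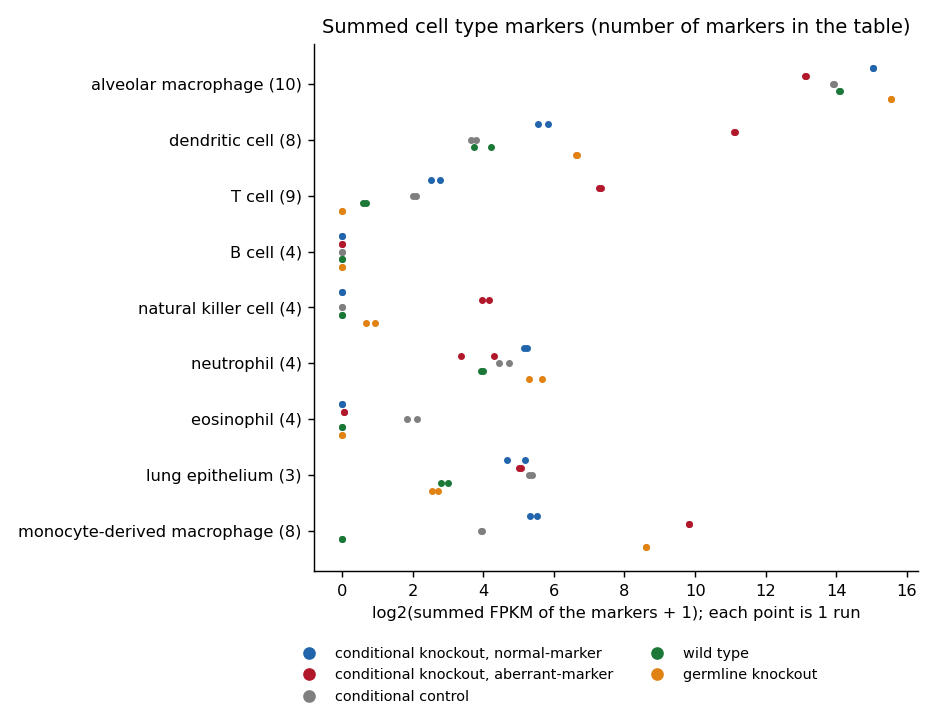
Summed FPKM of fixed marker genes on a log2(FPKM + 1) axis for 9 cell types, with 1 point per run and colour for the library. Dendritic cell, T cell and monocyte-derived markers are highest in the aberrant-marker library, whose alveolar macrophage markers are the lowest of the 5 libraries. The alveolar macrophage sum is mostly Chil3 in each library.

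The genes of alveolar macrophage identity had the largest share of lower calls among the lists. Of 44 measured, 23 were lower and 3 higher (52.3% lower against 3.61% of all genes compared), and the median over the 36 present in both libraries was -2.16. The label of the aberrant-marker library was therefore met only in part by its markers. Of 10 alveolar macrophage markers 8 were at 1 FPKM or more, and Marco and Siglec5 were below it. The 8 were all lower than in the normal-marker library. Their log2 differences ran from -1.25 (Itgax) to -7.19 (Ear1, mean 2.27 FPKM against 476 FPKM). Marco, a scavenger receptor of resident macrophages, was at 167 and 168 FPKM in the normal-marker runs and at 0.144 and 0.372 FPKM in the aberrant-marker runs (-7.07). Siglec5, the entry that holds Siglec-F (Entrez 233186), was at 91.9 and 96.3 FPKM against 0.0526 and 0.215 FPKM (-6.39). The labels do not say whether Siglec-F was among the markers of the separation. Ear1, an eosinophil-associated ribonuclease that alveolar macrophages also make, went from 468 and 484 FPKM to 1.08 and 3.46 FPKM (-7.19), and Ear2 from 2891 and 2890 FPKM to 324 and 307 FPKM (-3.19). All 4 genes were called, and the rule of the call already requires both aberrant-marker runs to lie below both normal-marker runs.

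Not all genes of the identity list were lower. Rnase2a, a ribonuclease of the same family as Ear1, was higher, at 65.4 and 55.9 FPKM against 336 and 337 FPKM (2.45). So were Cldn1, a tight junction protein (3.93), and the carbonic anhydrase Car2 (22.8 and 21.8 FPKM from at most 0.0709 FPKM). These higher members were low in the macrophages of the conditional control and the wild type. Their means there were 0.440 and 0.732 FPKM for Rnase2a, 4.90 and 5.91 FPKM for Cldn1 and at most 0.0352 FPKM for Car2. Another carbonic anhydrase, Car4, was lower, at 1137 and 1110 FPKM against 43.3 FPKM in both runs (-4.66). Chil3, the chitinase-like protein Ym1, differed by -1.74 (27882 and 27588 FPKM against 8344 and 8238 FPKM) and Itgax, the CD11c chain, by -1.25 (298 and 294 FPKM against 125 and 122 FPKM), and neither was called. Lyz2, the lysozyme of macrophages and the most abundant transcript of the normal-marker library, was called, at 34013 and 34185 FPKM against 7773 and 7759 FPKM. Bhlhe41, a repressor that sustains alveolar macrophage renewal, was at 22.6 and 21.0 FPKM against 20.7 and 18.6 FPKM (-0.14). Pparg, the lineage factor, was lower, at 144 and 150 FPKM against 29.8 and 32.6 FPKM (-2.20), together with its partner Rxra (54.6 and 55.0 FPKM against 2.16 and 1.60 FPKM, -4.28) and the oxysterol receptor Nr1h3 (-2.37). Spi1, the factor PU.1 of all myeloid cells, differed by -0.34.

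**Figure D3:**
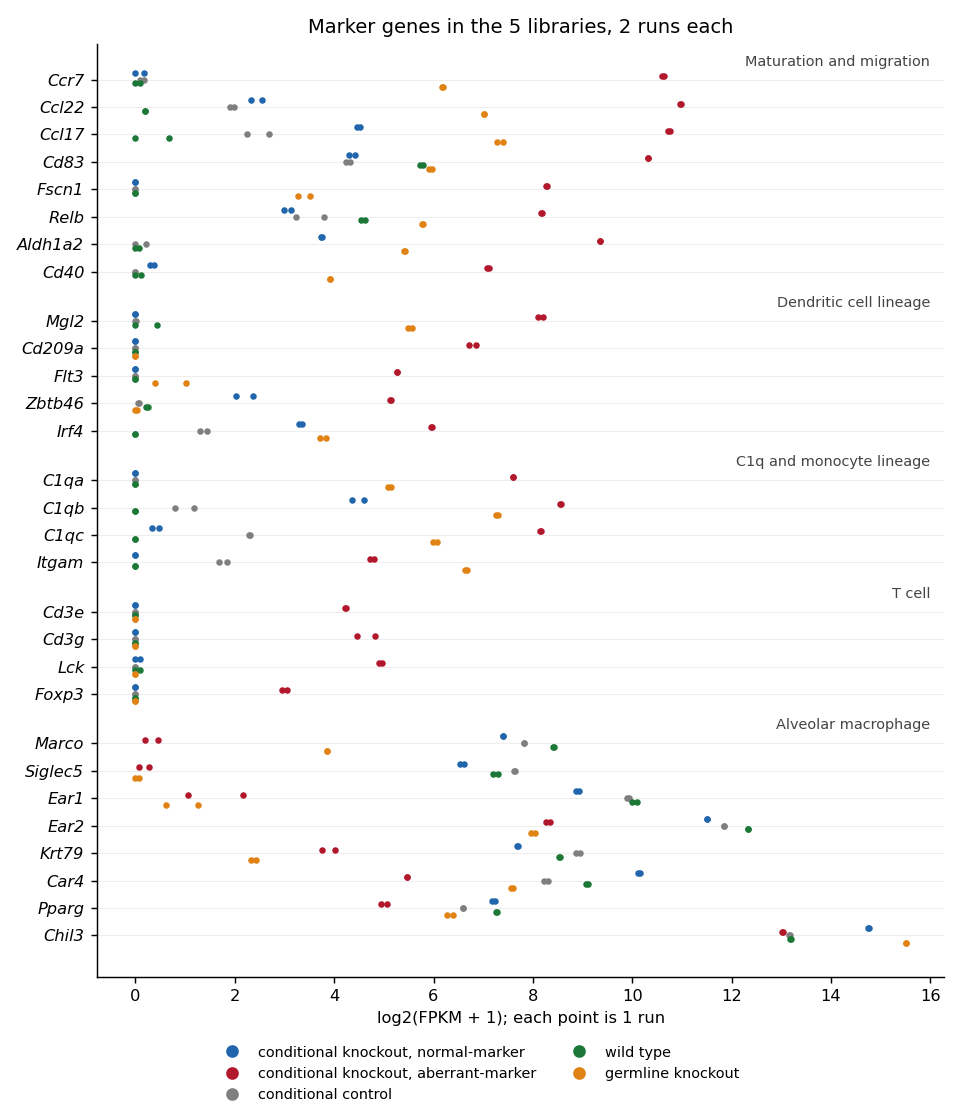
Marker genes in each run of the 5 libraries on a log2(FPKM + 1) axis, grouped by role, with colour for the library and 1 point per run. Genes of maturation, dendritic cells, C1q and T cells are highest in the aberrant-marker library apart from Itgam, at 99.3 FPKM in the germline knockout, whereas Marco, Siglec5, Ear1 and Car4 are far below the normal-marker library.

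Lipid handling, the main task of resident macrophages, was lower in part. The list of surfactant and lipid genes had 9 of 35 members lower (25.7%, against 3.61% of all genes compared) and 0 higher. The median over the 29 present in both libraries was -0.59. Cidec was at 94.4 and 94.8 FPKM in the normal-marker runs and at 0.263 and 0.269 FPKM in the aberrant-marker runs (-6.24). The fatty acid carrier Fabp1 went from 251 and 276 FPKM to 9.05 and 10.1 FPKM (-4.65), lipoprotein lipase Lpl from 736 and 745 FPKM to 84.3 and 86.0 FPKM (-3.11), and the lysosomal acid lipase Lipa from 450 and 460 FPKM to 63.5 and 64.3 FPKM (-2.81). Uptake and storage genes did not all follow. The scavenger Cd36 (-0.17), the lipid droplet coat Plin2 (-0.45) and the fatty acid carrier Fabp5 (0.69) were not called.

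Of 32 genes of fatty acid oxidation 5 were lower (15.6%, against 3.61% of all genes compared) and 0 higher. Cpt2, the inner carnitine transferase of mitochondria, was at 67.0 and 65.4 FPKM against 5.01 and 4.92 FPKM (-3.49), and Hadh at 42.6 and 43.2 FPKM against 0 and 0.0784 FPKM (-5.40). Genes of the respiratory chain, by contrast, gave 0 calls among 69, with differences from -1.49 to 0.76. Over all genes compared 8.06% were called in either direction.

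Among enzymes that make lipid mediators, 6 of 20 eicosanoid genes were lower (30%, against 3.61% of all genes compared), 0 higher and 14 not called. The median over the 12 present in both libraries was -1.46. The lower ones were Alox5, the 5-lipoxygenase (153 FPKM in both runs against 17.4 and 16.8 FPKM, -3.09), the leukotriene synthases Lta4h (128 and 132 FPKM against at most 15.6 FPKM) and Ltc4s (573 and 572 FPKM against 104 and 119 FPKM), the cyclooxygenase Ptgs1, the prostaglandin synthase Ptges2 and the phospholipase Pla2g15. The enzyme that makes leukotriene precursors and both enzymes after it were thus lower together. Hpgd, which inactivates prostaglandins, was at 18.4 and 17.9 FPKM from 0, under the 20 FPKM floor of the call. Ptgs1 and Pla2g15 differed by -2.40 and -2.25, and Ptges2 lost its call when 1 normal-marker run was left out.

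Of 23 scavenger receptors, which take up debris and modified lipid, 5 were lower, 2 were higher and 16 were not called. The shares were 21.7% lower and 8.70% higher, against 3.61% and 4.46% of all genes compared. Olr1 was at 81.2 and 82.4 FPKM against 2.81 and 1.96 FPKM (-4.61), and Mertk, a receptor for dying cells, at 83.2 and 82.3 FPKM against 8.81 and 8.63 FPKM (-3.11). Mrc1, the mannose receptor, went from 238 and 231 FPKM to 35.6 and 36.9 FPKM (-2.66). The membrane chemokine Cxcl16, which also binds oxidised lipid, was the opposite, at 15.8 and 22.0 FPKM against 763 and 733 FPKM (5.23). All 6 Siglec genes compared had lower values, and Siglec5, Siglece and Mag were called (37.5% of the 8 in the table, against 3.61% of all genes compared). Siglece lost its call when 1 normal-marker run was left out. Fcgr4, an activating antibody receptor, was at 131 and 126 FPKM against 7.27 and 6.71 FPKM (-4.01) and the neonatal receptor Fcgrt at 217 and 223 FPKM against 15.1 and 12.7 FPKM (-3.89), while Fcgr3 and Fcgr2b both differed by -0.62. Of 25 Toll-like receptor genes and adaptors 2 were lower (8%, against 3.61% of all genes compared). They were Tlr8 (24.6 and 26.5 FPKM against 0 and 0.0379 FPKM) and Ticam1 (-3.67).

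Fewer proliferation genes were present in the aberrant-marker than in the normal-marker library. Of 49 genes 46 were at 1 FPKM or more in the normal-marker library and 21 in the aberrant-marker library. By the call 11 were lower (22.4%, against 3.61% of all genes compared) and 0 higher. Ube2c, which drives exit from mitosis, was at 56.9 and 56.8 FPKM, Birc5 (survivin) at 33.2 and 31.4 FPKM, and the cyclin Ccnb1 at 28.7 and 30.1 FPKM, all listed under 0.01 FPKM in the aberrant-marker runs. These genes were present in both control libraries, with Ube2c at 37.1 and 42.7 FPKM. The DNA replication clamp Pcna, by contrast, was at 125 and 122 FPKM against 73.9 and 67.6 FPKM (-0.80). Ribonucleotide reductase Rrm2 was lower (-2.59), so S phase genes were not all alike.

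Of 43 haem and iron genes 3 were higher and 3 lower, 6.98% in each direction, near the 4.46% and 3.61% of all genes compared. Gclc, a glutathione synthesis enzyme, was at 6.44 and 5.83 FPKM against 198 and 195 FPKM (4.79), the cystine importer Slc7a11 at 2.35 and 2.69 FPKM against 31.8 and 34.8 FPKM (3.29), and the phagosomal metal transporter Slc11a1 at 21.2 and 18.6 FPKM against 121 and 133 FPKM (2.61). The lower ones were transferrin, Trf, at 1320 and 1328 FPKM against 103 FPKM in both runs (-3.67), the entry enzyme of haem synthesis Alas1 (-2.91) and glutathione reductase Gsr (-2.67). Hmox1, a haem-degrading enzyme, differed by -1.30, with 96.5 and 141 FPKM in the 2 aberrant-marker runs.

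Alternative activation genes, those induced in macrophages by interleukin 4, were higher in 12 of 30 and lower in 3. These shares were 40% and 10%, against 4.46% and 3.61% of all genes compared. The summed level of the list was lower, at 14149 and 13985 FPKM against 29212.5 and 28912 FPKM in the normal-marker runs. Most of it was Chil3, which differed by -1.74 and was not called. Several of the 12 higher genes, among them Ccl22, Ccl17, Mgl2, Cd209a and Pdcd1lg2, are also in the dendritic cell lists. Retnla, a secreted protein of this state, was at 2.78 and 1.91 FPKM against 73.1 and 74.0 FPKM (4.48), and Ccl24 at 35.2 and 39.6 FPKM from 0. The inhibitors Socs1 (3.28), Cish (3.47) and Socs2 (2.66), which are induced by cytokine receptors, were all higher. The 3 lower members were Mrc1, Pparg and Igf1, the last at 80.6 and 87.8 FPKM against 17.2 and 13.6 FPKM (-2.38). With a pseudocount of 5 FPKM in place of 1 Pparg and Igf1 lost their call, which left 1 lower member. Arg1 (38.6 and 35.2 FPKM against 76.8 and 75.4 FPKM, 1.02) and Mmp12 (115 FPKM in both runs against 275 and 283 FPKM, 1.27) were not called. Both were under 4 FPKM in the conditional control and the wild type, so that the 2 knockout populations stood together.

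Of 33 cytokine genes 2 were higher and 2 lower, 6.06% in each direction, near the 4.46% and 3.61% of all genes compared. Il15, which sustains memory T and natural killer cells, was at 32.6 and 33.7 FPKM from 0, and Tnfsf9, the ligand of 4-1BB, at 34.3 and 30.9 FPKM from 0. The lower ones were Il18 (164 and 160 FPKM against 25.1 and 22.2 FPKM, -2.73) and Tnfsf13 (-2.52). Tnf was at 3.92 and 4.90 FPKM against 3.38 and 4.94 FPKM, within the spread of the runs. Interferon-stimulated genes gave 3 calls, all higher, among 54, with a median of 0.04. This was 5.56%, near the 4.46% of all genes compared. The 3 were Ifitm3 (94.0 and 97.9 FPKM from 0), Usp18 and Igtp, and Igtp lost its call when 1 aberrant-marker run was left out. Growth factor and cytokine receptors gave 9 higher (25.7%, against 4.46% of all genes compared) and 0 lower among 35. The higher ones included Tnfrsf4 (OX40, 233 and 241 FPKM), Il21r (48.4 and 48.7 FPKM) and Il2ra (28.8 and 29.7 FPKM), all under 0.01 FPKM in the normal-marker runs. The GM-CSF receptor chain Csf2ra, on which alveolar macrophages depend, differed by -0.70. Aldh1a2, which makes retinoic acid, went from 12.4 and 12.3 FPKM to 656 and 655 FPKM (5.62).

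Immediate early genes were higher in 9 of 32 (28.1%, against 4.46% of all genes compared) and lower in 0. Nr4a3 was at 0.0201 and 0.0207 FPKM against 160 and 158 FPKM, Gadd45b at 2.28 and 2.97 FPKM against 826 and 808 FPKM (7.82) and Zfp36, which destabilises cytokine transcripts, at 18.6 and 19.0 FPKM against 352 and 359 FPKM (4.17). The classical members Fos (-0.01), Jun (0.18) and Ier2 (0.64) were not called.

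Ribosomal protein genes differed by a smaller step. All 77 cytosolic ribosomal protein genes had higher values in the aberrant-marker library, by 0.45 to 2.34 with a median of 1.29. For 76 of 77 the level there was the highest of the 5 libraries, against 31.1% of all genes compared. Only 3 passed the rule (3.90%, against 4.46% of all genes compared). They were Rps19 (806 and 825 FPKM against 4107 and 4137 FPKM, 2.34), Rpl21 (2.07) and Rps6 (2.06). The 77 stayed above 0 when columns were scaled to a common sum and when the median gene was set to 0, with medians of 1.26 and 1.23, while Rpl21 and Rps6 lost their call in the latter. Many of these genes have near-identical pseudogenes, among which the authors' estimate had to divide reads.

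**Figure D4:**
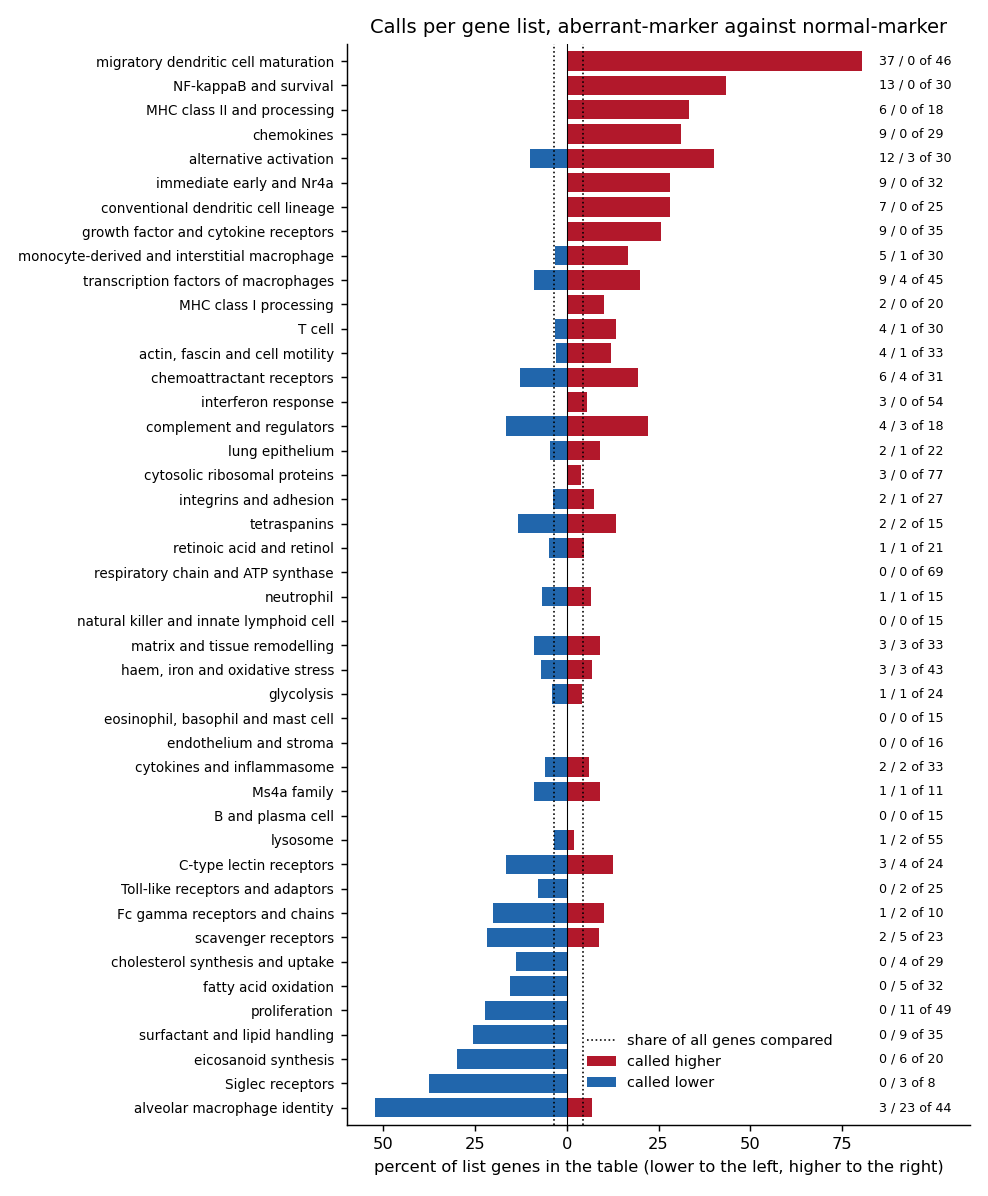
Share of each list's genes in the table called higher (red, right) or lower (blue, left) in the aberrant-marker library, with counts at the right as higher / lower of all, and dotted lines at the shares of all genes compared (4.46% and 3.61%). Migratory dendritic cell maturation has the largest share higher (37 of 46) and alveolar macrophage identity the largest share lower (23 of 44).

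The other libraries place these differences. A call already sets the aberrant-marker library above or below the normal-marker one. The shares of called genes given here were therefore raised by the choice of genes, and the shares of all genes are given for scale only. Of the 456 higher genes, 414 had their highest level in the aberrant-marker library (90.8%, against 31.1% of all genes compared), and 276 were also at least 4-fold above both the conditional control and the wild type (60.5%, against 9.56%). Of the 369 lower genes, 279 had their lowest level there (75.6%, against 20.5%), and 236 were at least 4-fold below both controls (64.0%, against 6.56%). The normal-marker library held the highest level of 159 of the 369 (43.1%, against 17.2%). Igf1, a growth factor, was lower in the aberrant-marker library (15.4 FPKM) than in the normal-marker library (84.2 FPKM), yet above the conditional control (1.12 FPKM) and the wild type (8.68 FPKM). Spp1, an extracellular matrix protein, was at 1755 and 1756 FPKM in the normal-marker runs, 259 and 265 FPKM in the aberrant-marker runs and 457 and 455 FPKM in the conditional control and the wild type. Some changes shared by both populations do not appear in this comparison: Fbp1, a gluconeogenic enzyme, was at 126 and 120 FPKM and at 87.9 and 85.3 FPKM, but under 1 FPKM in both controls. In 31 of the 456 higher genes the other 4 libraries were all under 0.1 FPKM, among them Cd209a, Tspan33, Clec10a, Il1r2, Lck and Mmp25.

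Macrophages of germline Bach2 knockout mice and wild type mice were compared by the same rule and share no sample with the comparison above. There 310 of 9734 genes were higher (3.18%) and 381 lower (3.91%), in all 7.10%. Of the genes called higher here 76 were called higher in the germline knockout too, which is 16.7% of the 456 and 24.5% of the 310, while 7 were lower there. Of the genes called lower here 96 were lower in the germline knockout (26.0% of the 369 and 25.2% of the 381), and 6 were higher. Among all genes compared here 2.99% were called higher and 3.65% lower in the germline knockout. Across the 8912 genes compared in both, the 2 differences correlated at r = 0.27 (Spearman 0.21), a description over genes that are not independent.

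The alveolar macrophage identity list had 18 of 44 genes lower in the germline knockout, 16 of them also lower in the aberrant-marker library. Fabp1 was at 0.178 FPKM in the germline knockout against 787 FPKM in the wild type, Fpr1 at 0 against 467 FPKM, and Marco at 13.5 against 339 FPKM. The maturation list had 9 of 46 genes higher in the germline knockout and all 9 were among those higher here, but at lower levels: Ccr7 at 71.6 FPKM, Ccl22 at 128 FPKM, Ccl17 at 161 FPKM and Aldh1a2 at 41.6 FPKM. Of 29 chemokines 13 were higher in the germline knockout and 8 of these were higher here. Of the T cell list 1 gene was higher in both comparisons, Il7r at 41.7 FPKM in the germline knockout, and 1 was lower in both, Cd2. Of the dendritic cell lineage list 1 was higher in both, Mgl2 at 45.1 FPKM. Other members of these lists that were higher or present here, Cd3e, Cd3g, Cd209a and Clec10a, were under 0.01 FPKM in the germline knockout, and Flt3 was at 0.667 FPKM. The difference of the 2 differences was not tested.

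**Figure D5:**
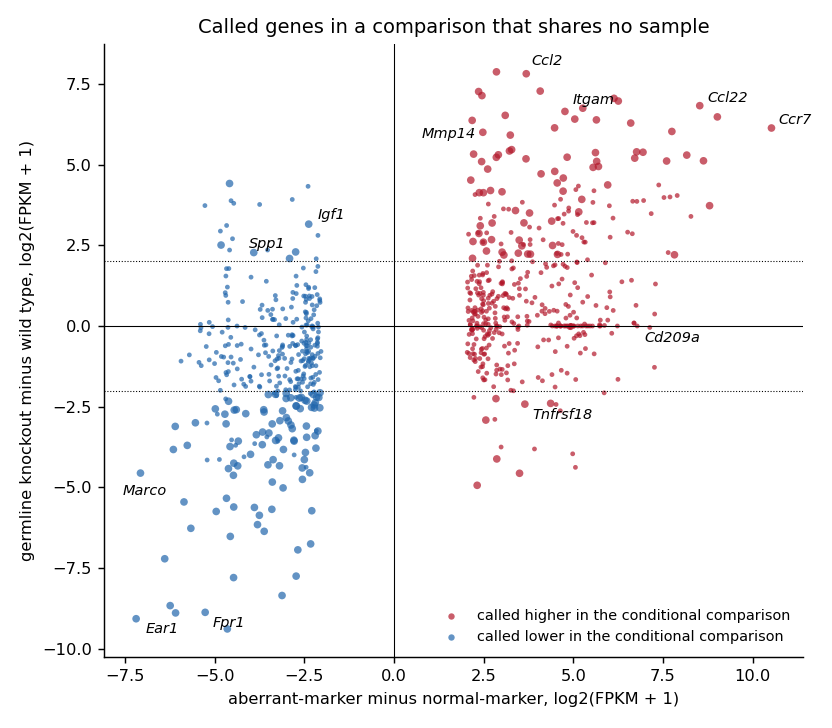
For the genes called in the conditional comparison, the log2(FPKM + 1) difference of the aberrant-marker minus the normal-marker library (x axis) against that of the germline knockout minus the wild type (y axis), with larger points where the germline difference was called and dotted lines at the 4-fold limits. The 76 genes called higher in both lie at the upper right and the 96 called lower in both at the lower left, with Igf1, Spp1 and Tnfrsf18 among those called in opposite directions.

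Opposite calls were few and included genes of the immune lists. Tnfrsf18 (GITR) was at 5.91 and 5.38 FPKM against 83.4 and 81.3 FPKM here and at 29.2 FPKM in the wild type against 4.64 FPKM in the germline knockout. Igf1 and Spp1 were lower here and higher in the germline knockout (85.3 FPKM and 2234 FPKM). Genes just inside and just outside the rule were of like size: among higher genes Ubqln4 (2.04) and Siah2 (2.05) passed it, while Pf4 (2.20) did not in every pairing of runs, and among lower genes Mpeg1 passed at -2.03 while Rab19 did not at -2.40. In all, 58 genes were 4-fold apart in their means and not in every pairing.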

How the data were processed

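Per the labels' protocols, cDNA was amplified from 100 pg of RNA per sample (SMARTer Ultra Low Input, 18 PCR cycles), sheared by ultrasound and sequenced after an Ovation Ultralow preparation. Without molecular identifiers or strand, antisense overlaps are not resolved, and at this input rare transcripts can be missing. The deposited values are FPKM for 45913 transcripts in 10 columns, made by the authors; the unit is read from the values, as the file's header does not name it. Bowtie 1.1.2 and eXpress 1.5.1 are named in the submitters' processing notes with no role, and the genome build is not given in the sources used here.

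FPKM was summed per Entrez gene (26173 genes), runs were averaged, and 1 FPKM was added before log2. Entry needed 1 FPKM in 2 or more of the 4 columns (10231 genes). The rule of 4-fold and 20 FPKM replaced a test, because each group is 1 library, and its calculation was checked on simulated data in which runs differed by counting error only. Depth was estimated from the worth of 1 read in genes of 1 transcript over 1500 bases, and was not used for counts. No counting interval is given. List medians cover members at 1 FPKM or more in both libraries.

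The members, the 44 gene lists and the rules were chosen with earlier results of these data known. Genes named are Bach2, the 15 largest rises and falls among called genes without predicted ones, up to 3 called genes per list and direction, the cell type markers, and further list members as values. Of 1175 list genes 1144 are in the table, and the rest are not analysed here. Alternatives were the pseudocount, the floor, the threshold, the scaling, means only, the highest transcript and leaving out each run. Python 3.11.15, pandas 2.3.3, numpy 2.4.6 and matplotlib 3.10.9 were used.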

Additional observations from a re-analysis of the deposited data

How the results depend on the processing

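No result reversed under any alternative tried. The counts followed the limits of the rule. With a floor of 1 FPKM 1347 genes were higher and 1156 lower, and with 50 FPKM 226 and 176. A 2-fold threshold gave 1051 and 928, and an 8-fold threshold 268 and 176. The count between the 2 control libraries was 1468 and 35 with these floors, 902 and 88 with these thresholds, and 124 with a pseudocount of 5 FPKM. Genes higher in both the conditional and the germline comparison numbered 250 and 32 with the floors and 185 and 43 with the thresholds, and genes lower in both 270, 52, 314 and 39. A floor or threshold changes such counts by construction. Scaling to a common sum, setting the median difference to 0, a pseudocount of 0.1 FPKM, means only and the highest transcript kept these 5 counts within 1.5 times. Of the list counts given, the lower alternative activation genes went from 3 to 1 with a pseudocount of 5 FPKM, the higher ribosomal protein genes from 3 to 1 with the median difference set to 0, and the lower tetraspanins from 2 to 1 with the highest transcript. Leaving out aberrant-marker run 1 gave 1 lower gene each, from 0, in the dendritic cell lineage and the respiratory chain. Leaving out 1 run at a time gave 471 to 481 genes higher, 380 to 390 lower, 248 to 262 between the control libraries, 76 to 80 higher in both comparisons and 97 to 100 lower in both. Of 135 named genes with a call 3 lost it when a run was left out: Igtp, Ptges2 and Siglece. With a pseudocount of 5 FPKM 12 lost it, among them Pparg, Igf1, Itgal, Mmp14, Ptges2 and Rpl21. With the highest transcript 12 lost it, among them Zbtb46, Itgam, Lck, Car2, Nr1h3, Igf1, Itgal and Tspan32, and with the median difference set to 0 it was 2, Rpl21 and Rps6. The 8-fold threshold took the call from 34 and the floor of 50 FPKM from 48. The alternatives for the control and germline counts were added after seeing the data. No paired analysis was possible because the labels number samples across the series and give no replicate number that groups share. At this depth 1 read on a transcript of 2 kb is worth about 0.0519 to 0.0659 FPKM, so levels near this cannot be ranked.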

Other observations

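Of 15 tetraspanins, membrane organisers that are not described above, 2 were higher and 2 lower in the aberrant-marker library. This was 13.3% in each direction, against 4.46% and 3.61% of all genes compared. Tspan3 was at 0.574 and 0.739 FPKM in the normal-marker runs and at 671 and 637 FPKM in the aberrant-marker runs, and Tspan33 was at 41.2 and 41.5 FPKM from 0. Cd9 was at 4481 and 4434 FPKM against 638 and 604 FPKM (-2.84), and Tspan32 differed by -4.19. The integrin chain Itgal of leukocyte adhesion was lower (-2.19) while Itgb7, which pairs with gut-homing and epithelial-binding chains, was at 36.2 and 37.5 FPKM from 0.

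The metalloproteinase genes did not move as 1 group. Mmp14 was at 3.50 and 5.11 FPKM against 29.4 and 27.7 FPKM (2.48), Mmp25 at 35.9 and 35.8 FPKM from 0, and Mmp8 at 38.7 and 40.5 FPKM against 1.49 and 1.59 FPKM (-4.00). The actin regulators Marcks (10.0 and 10.6 FPKM against 375 and 367 FPKM, 5.04) and Marcksl1 (151 and 154 FPKM from 0) were higher, and Myo1f, a myosin of phagocytes, was lower (-2.32). The 15 most abundant genes made up 28.9% of the summed FPKM of the normal-marker library and 20.5% of that of the aberrant-marker library.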
